A study of Homo sapiens with 13 samples.

Results

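M5 and M1 are human cell lines from a non-small cell lung carcinoma background that colonise bone, and here 3 arrays of M5 were set against 3 arrays of M1, which are 6 of the 13 arrays in the series. The members are the arrays titled with these line names, and no measured value was used to choose them. Both lines came from control cells, injected into the hearts of mice, recovered from bone and scored for metastatic activity by reinjection. The other 7 arrays held control cells without luciferase (2 arrays), control cells with luciferase (2) and a further bone-seeking line, M4 (3). In the fit without array batches they served only to share the estimate of the spread. In the fit with batches, described below, they also helped to estimate the shifts between batches, and so entered the difference between M5 and M1. Each array carried a pool of RNA from 3 groups of cells. The labels call the arrays of a line biological replicates without saying how the cultures were separated, so p-values measure the spread between these arrays, which may be technical. The labels do not name the cell line of origin, do not say which luciferase construct was used, and do not say whether M1, M4 or M5 is a clone. M1 and M5 were both selected for the same property, so the comparison asks in what they differ rather than what sets metastatic cells apart.

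Lung carcinoma cells that settle in bone meet a mineralised matrix, marrow stroma and the cells that build and resorb bone. Tumour cells are known to act on that tissue through secreted proteases and cytokines, through the matrix proteins they lay down and the receptors by which they hold to it, and by drawing on lipids of the marrow. The account below follows those roles: secreted and surface proteins, lipid handling and metabolism, intracellular regulators, and the cell cycle. It then turns to the chromosomes on which the differing genes lie, which cut across those roles.

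The values are log2 signals, so a difference of 1 is a 2-fold difference. The labels record no array batch. Of the arrays' 62 control probe sets, 45 follow added transcripts (spike-ins) and the others follow human transcripts such as ACTB and GAPDH. Signals of all 62 together separated the arrays into 4 batches. Whether these batches also follow the cells or the quality of their RNA was not tested. Only batch 2 held both lines, with replicate 1 of each and also M4 replicate 1 and the second array of either control. M1 replicate 2 lay in batch 1, M1 replicate 3 in batch 3, and batch 4 held M5 replicates 2 and 3 alone. For those 2 arrays, batch and line cannot be told apart. The range between the quartiles of the signals was 3.07 and 3.19 log2 units on them, against 3.32 to 3.58 on the other arrays. The 3′ probe set of GAPDH exceeded the 5′ one by 0.094 to 0.15 on the M1 arrays and by 0.028 to 0.17 on the M5 arrays, a measure of RNA quality in which the lines overlapped. For ACTB the same difference was -0.13, -0.11 and 0.30 on M1 replicates 1, 2 and 3. It was -0.028, 0.15 and 0.11 on the M5 replicates in that order. The lines overlapped here too, with M1 replicate 3 the highest array of the series. Each of these 2 arrays of batch 4 correlated best with the other across genes, while M5 replicate 1 correlated best with a control array without luciferase of batch 2. The M1 arrays did not correlate best with each other either. M1 replicates 1, 2 and 3 were nearest to M4 replicate 1, a control array with luciferase and M4 replicate 2, each from the same batch. The main results are therefore given from the fit without batches and from the batch fit, which adds the 4 batches as a block and in which the M5 estimate comes from M5 replicate 1 alone. The difference between the 2 first replicates within batch 2 is given as a value with no test; it shares its M5 array with the batch fit and is no separate support for it.

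Keratins of simple epithelium were bright in both lines. KRT18 lay between 12.31 and 12.78 in M1 and between 12.37 and 12.63 in M5, and KRT8, KRT19 and KRT7 were also above the median signal in both lines. EPCAM and CDH1, the other defining markers of carcinoma epithelium, lay below the lower quartile of every M1 and M5 array, at means of 3.56 and 3.77 in M1 and 3.43 and 3.85 in M5. Markers of other cells of a bone lesion were measured as lists. Of 6 osteoblast, 6 osteoclast, 14 haematopoietic and 10 endothelial markers, 0 were called in limma's fit without batches or with them, with 1, 2, 4 and 0 at an unadjusted p under 0.05 without batches. Of 13 fibroblast and marrow stroma markers, PDPN was higher and COL3A1 lower in M5 without batches, and COL3A1 alone was called in the batch fit. The median signal of these stromal markers ran from 4.93 to 5.05 over the M1 arrays and from 4.92 to 5.47 over the M5 arrays, and their part in other results was not tested. The median signal of the haematopoietic markers ran from 4.29 to 4.397 over the M1 arrays and from 4.26 to 4.64 over the M5 arrays. Host cells in these mice carry mouse transcripts, for which these human probes are no test. In RNA from whole cultures, fewer cells of a type and less RNA per cell cannot be told apart.

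M5 differed from M1 most in genes that were lower in M5. Of 11963 genes tested, 118 were lower in M5 (0.986%) and 29 were higher (0.242%) at a limma adjusted p under 0.05 without batches. SERPIND1, FABP6 and PPEF1 led the higher genes, and BCHE, FBN2 and VAMP8 led the lower genes. The batch fit called 94 genes lower (0.786%) and 99 higher (0.828%), so the excess of lower genes, 80.3% of the calls without batches, was 48.7% of the calls with them. The fits shared 58 calls in the same direction, 43 lower and 15 higher, and 0 genes were called in opposite directions; 1771 and 1839 genes had an unadjusted p under 0.05. All 147 genes called without batches had the same sign within batch 2, whose 2 arrays are part of that fit. By position alone, 744 genes (6.22%) had all 3 M5 arrays below all 3 M1 arrays and 897 genes (7.5%) had them above.

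The counts moved with single arrays. Leaving out M5 replicate 1, which stands apart from the other M5 arrays, gave 1152 higher and 1214 lower genes, among them all 29 and all 118 of the original calls. The fit then compared batch 4 with M1. Leaving out M1 replicate 1, 2 or 3 gave 5, 4 and 18 higher genes and 46, 42 and 41 lower genes, and leaving out M5 replicate 2 or 3 gave 4 and 2 higher genes and 33 and 20 lower genes. With M5 represented by replicate 1 alone, an alternative chosen after the data were seen, FABP6 was at 1.20, BCHE at -2.65 and FBN2 at -2.16. That fit leaves 1 array for M5, so its calls are not counted. Of the 41 called genes named by rule, 26, 29 and 21 lost their call without M1 replicate 1, 2 or 3. The loss was 0, 26 and 32 without M5 replicate 1, 2 or 3. Called genes chosen after their values were seen are not among the 41. Genes at or below the median signal of all genes shifted with the arrays: their median difference from the M1 mean was 0.15 on M5 replicate 2, 0.13 on M5 replicate 3 and -0.059 on M5 replicate 1. Genes above the median signal moved by -0.097, -0.015 and 0.039 on the same arrays. The median difference of all genes was 0.034 without batches and -0.0037 with them.

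**Figure D1:**
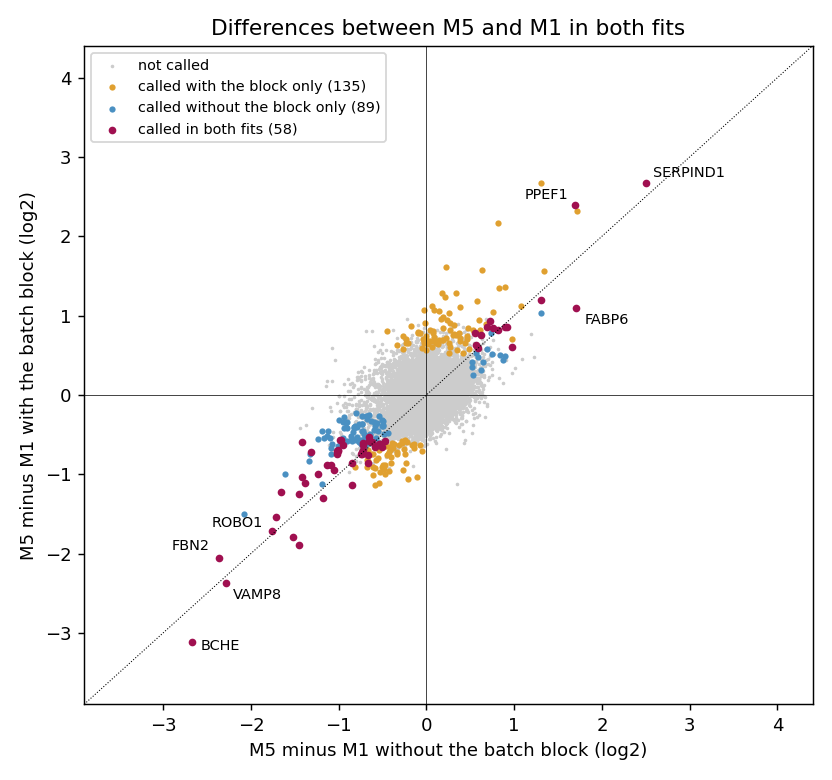
Log2 difference M5 minus M1 for each gene without batches (horizontal axis) and with the 4 array batches as a block (vertical axis), coloured by the fit that called it. BCHE, VAMP8 and SERPIND1 lie far out in both fits, with 58 genes called in both, 89 without batches only and 135 in the batch fit only; the dotted line marks equal values.

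Genes with the largest differences called in both fits were read against their start sites. The promoter windows below, 250 bases upstream of the RefSeq start in GRCh38.p14, are shown for those of the 3 largest differences in each direction that have a single annotated start, which leaves out PPEF1. Sequences run 5′ to 3′ on the gene's strand, and capitals mark a TATA box (TATAAA, or TTTATA on the other strand), a CCAAT box (CCAAT or ATTGG) or a GC box (GGGCGG or CCGCCC).
SERPIND1, chr22:20773863-20774112, plus strand: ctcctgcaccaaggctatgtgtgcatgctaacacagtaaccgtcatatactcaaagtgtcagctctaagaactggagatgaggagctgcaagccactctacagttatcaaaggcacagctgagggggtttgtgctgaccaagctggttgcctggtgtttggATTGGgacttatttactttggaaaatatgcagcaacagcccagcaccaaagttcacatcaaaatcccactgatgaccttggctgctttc
FABP6, chr5:160229256-160229505, plus strand: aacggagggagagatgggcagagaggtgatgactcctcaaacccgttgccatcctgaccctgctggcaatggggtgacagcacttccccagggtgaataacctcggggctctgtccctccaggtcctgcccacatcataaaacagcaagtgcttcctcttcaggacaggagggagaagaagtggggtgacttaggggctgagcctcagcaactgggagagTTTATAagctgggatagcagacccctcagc
BCHE, chr3:165837424-165837673, minus strand: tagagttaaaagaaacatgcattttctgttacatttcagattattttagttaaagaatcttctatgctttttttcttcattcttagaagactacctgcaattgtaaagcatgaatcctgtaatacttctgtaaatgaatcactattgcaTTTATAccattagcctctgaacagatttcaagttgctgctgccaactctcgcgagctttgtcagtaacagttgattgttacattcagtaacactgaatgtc
FBN2, chr5:128538246-128538495, minus strand: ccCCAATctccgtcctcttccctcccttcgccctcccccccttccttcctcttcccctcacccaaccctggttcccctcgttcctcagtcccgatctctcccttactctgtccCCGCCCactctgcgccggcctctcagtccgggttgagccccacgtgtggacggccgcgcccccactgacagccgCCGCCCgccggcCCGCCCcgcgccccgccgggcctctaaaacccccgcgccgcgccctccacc
VAMP8, chr2:85577336-85577585, plus strand: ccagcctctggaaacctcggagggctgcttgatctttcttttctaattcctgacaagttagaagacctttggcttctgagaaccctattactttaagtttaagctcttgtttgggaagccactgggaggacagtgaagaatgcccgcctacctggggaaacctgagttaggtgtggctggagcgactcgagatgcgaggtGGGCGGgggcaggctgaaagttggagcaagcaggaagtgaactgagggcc
The windows differed widely in base composition. BCHE had 33.2% G and C with 2 CpG dinucleotides, SERPIND1 47.6% with 1, VAMP8 52.8% with 6, FABP6 56.8% with 3 and FBN2 72.8% with 25, against medians of 58% and 11 over the 35116 windows of the table. TTTATA began 30 bases before the FABP6 start, and 101 before that of BCHE. The GC box stood 3 times in the FBN2 window and once in that of VAMP8. Of all windows, 10.7% held the TATA box, 32% the CCAAT box and 42.6% the GC box, and the matches are a description of the letters only.

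Among secreted proteins, SERPIND1 had the largest difference toward M5. It encodes heparin cofactor II, a plasma inhibitor of thrombin. Its signal was 4.24, 4.67 and 6.44 on M1 replicates 1, 2 and 3 and 7.24, 7.69 and 7.92 on the M5 replicates in the same order. All M5 arrays lay above all M1 arrays, although M1 replicate 3 stood well above the other M1 arrays. M1 replicate 1 was close to the lower quartile of its array (4.23), so the fold is not exact. SERPIND1 was 5.67-fold higher in M5 (log2 2.502 ± 0.46, SE; limma adjusted p = 0.0225), with 2.67 in the batch fit (adjusted p = 0.000438) and 2.997 within batch 2. Controls averaged 4.17 and M4 4.996, so both were below every M5 array. Leaving out an array kept the call in 2 of 6 fits. IGFBP7, a secreted binding protein of insulin-like growth factors and matrix, read 5.24, 5.56 and 5.33 in M1 and 5.802, 6.32 and 6.704 in M5. The difference of 0.896 ± 0.19 was called without batches (adjusted p = 0.0449) and was 0.48 in the batch fit (adjusted p = 0.278) and 0.56 within batch 2. Its 2 other probe sets, both dim, were also higher in M5. LAMB3, a chain of the basement membrane laminin of epithelia, read 4.81, 4.59 and 4.71 in M1 and 5.27, 5.29 and 5.63 in M5, 1.61-fold higher in M5 (adjusted p = 0.0449; batch fit 0.58, adjusted p = 0.151, and 0.46 within batch 2).

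The matrix genes that separated the lines most were lower in M5. FBN2 encodes fibrillin-2, a microfibril protein of developing elastic tissue. It read 6.06, 6.55 and 8.18 in M1 and 4.77, 4.46 and 4.45 in M5. The groups did not overlap, and M1 replicate 3 again stood above the other M1 arrays, nearer to the controls (8.598) and M4 (8.74). FBN2 was 5.16-fold lower in M5 (log2 -2.37 ± 0.43; adjusted p = 0.0225; batch fit -2.06, adjusted p = 0.0476, and -1.29 within batch 2). A second, dim FBN2 probe set differed by 0.16 in the other direction. Signals of FBN2 on M5 replicates 2 and 3 were close to the lower quartiles of their arrays (4.404 and 4.36), so the fold is not exact. COL3A1, a fibrillar collagen of connective tissue, read 10.93, 10.104 and 9.796 in M1 and 9.12, 8.405 and 8.16 in M5, 3.29-fold lower (-1.72 ± 0.32; adjusted p = 0.0226; batch fit -1.54, adjusted p = 0.0227, and -1.81 within batch 2). The highest M5 value, from replicate 1, was close to the control mean of 9.09, and the M1 values were all above it. The bright further COL3A1 probe sets gave -1.66 and -2.13, and a dim one -0.015. TGM2, transglutaminase 2, cross-links proteins of the matrix. Its signal was 9.23, 9.18 and 8.82 in M1 and 7.22, 6.82 and 6.94 in M5, with no overlap and with the controls (8.57) near M1. TGM2 was 4.23-fold lower (log2 -2.08 ± 0.302; adjusted p = 0.00729) and kept its call in 5 of 6 fits that left out an array, but not in the batch fit (-1.496, adjusted p = 0.0674, and -2.01 within batch 2). Further TGM2 probe sets were lower in M5 except for one at 0.15.

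PLAU, the urokinase that activates plasminogen at the cell surface, read 8.36, 8.55 and 8.65 in M1 and 7.42, 7.56 and 7.32 in M5. The lines did not overlap (2.12-fold; log2 -1.09 ± 0.23; adjusted p = 0.0425; batch fit -0.75, adjusted p = 0.0971, and -0.94 within batch 2). IGFBP4, another binding protein of insulin-like growth factors, read 6.65, 7.15 and 6.79 in M1 and 5.62, 5.499 and 5.91 in M5, a difference of -1.19 ± 0.21 (adjusted p = 0.0219) that the batch fit gave as -1.13 (adjusted p = 0.102, and -1.03 within batch 2). It lay opposite to IGFBP7. MXRA7, a transmembrane protein named for its association with matrix remodelling, read 8.74, 8.56 and 8.85 in M1 and 7.45, 7.13 and 6.59 in M5. MXRA7 was 3.16-fold lower (adjusted p = 0.00119; batch fit -1.22, adjusted p = 0.015, and -1.29 within batch 2), and the call held in 6 of 6 fits without an array.

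Among cytokines, IL18 and CXCL8 were lower in M5 without batches and were not called in the batch fit. IL18, an inflammasome-processed cytokine, read 7.27, 7.63 and 7.57 in M1 and 6.28, 5.697 and 5.64 in M5. Every M5 array lay below every M1 array and below the control mean of 7.04. The difference was 3.07-fold (log2 -1.62 ± 0.24; adjusted p = 0.00888), held in 5 of 6 fits without an array, and was -1.001 in the batch fit (adjusted p = 0.101) and -0.99 within batch 2. Both chains of its receptor lay the other way. IL18R1 read 3.94, 3.82 and 4.42 in M1 and 4.96, 4.97 and 4.92 in M5, a difference of 0.89 ± 0.16 (adjusted p = 0.0225; batch fit 0.86, adjusted p = 0.035, and 1.02 within batch 2). IL18RAP read 4.16, 4.08 and 4.36 in M1 and 4.81, 4.77 and 4.88 in M5, a difference of 0.62 ± 0.13 (adjusted p = 0.0399; batch fit 0.75, adjusted p = 0.029, and 0.66 within batch 2). Both receptor signals were dim, under the lower quartile on 2 of the 3 M1 arrays, and the pair was chosen after its values were seen. CXCL8, the neutrophil chemokine also called interleukin-8, was among the brightest signals, at 12.78, 12.704 and 13.14 in M1 and 12.24, 12.26 and 11.94 in M5. It was 1.66-fold lower in M5 (log2 -0.73 ± 0.13; adjusted p = 0.0225) and -0.57 in the batch fit (adjusted p = 0.0964, and -0.54 within batch 2).

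At the cell surface, CD9, a tetraspanin that organises adhesion receptors, read 6.02, 5.49 and 6.72 in M1 and 7.39, 7.26 and 7.498 in M5. The M5 arrays lay close together and close to M4 (7.37), while M1 was the more variable line. CD9 was 2.48-fold higher in M5 (log2 1.31 ± 0.25; adjusted p = 0.0264; batch fit 1.197, adjusted p = 0.0357, and 1.37 within batch 2). TSPAN13, a further tetraspanin, lay the other way, 8.07, 8.11 and 8.48 in M1 against 7.73, 7.18 and 7.04 in M5 (-0.903; adjusted p = 0.0272; batch fit -0.41, adjusted p = 0.187, and -0.34 within batch 2). PDPN, the mucin-like podoplanin of lymphatic and invading cells, read 3.75, 3.82 and 3.94 in M1 and 4.18, 4.68 and 4.57 in M5, with all M1 arrays below the lower quartile (0.64; adjusted p = 0.0449; batch fit 0.41, adjusted p = 0.187, and 0.42 within batch 2). ROBO1, a receptor for SLIT guidance proteins, read 6.07, 6.91 and 6.18 in M1 and 4.59, 4.47 and 4.83 in M5. M5 was more than 1 unit below M1, M4 (6.12) and controls (6.53) on every array. The difference was 3.38-fold (log2 -1.76 ± 0.19; adjusted p = 0.00119; batch fit -1.72, adjusted p = 0.0113, and -1.48 within batch 2). SLITRK5, a neuronal transmembrane protein with leucine-rich repeats, read 7.26, 7.39 and 7.398 in M1 and 6.14, 6.102 and 5.45 in M5 (2.74-fold lower; adjusted p = 0.00132; batch fit -1.25, adjusted p = 0.0277, and -1.12 within batch 2). Both kept their call in 6 of 6 fits without an array.

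ALCAM, an immunoglobulin-family adhesion molecule, read 9.104, 9.31 and 9.33 in M1 and 8.403, 8.18 and 8.11 in M5. It was 2.02-fold lower (log2 -1.02 ± 0.13; adjusted p = 0.00312; batch fit -0.704, adjusted p = 0.035, and -0.701 within batch 2), and a second ALCAM probe set gave -1.09. CLDN1, a claudin of tight junctions, read 8.05, 8.25 and 8.73 in M1 and 6.87, 7.54 and 7.09 in M5 (2.26-fold lower; adjusted p = 0.03; batch fit -1.304, adjusted p = 0.0184, and -1.17 within batch 2). PLXNA1, a semaphorin receptor, read 7.58, 7.34 and 7.44 in M1 and 7.01, 6.78 and 6.85 in M5 (-0.58; adjusted p = 0.0454; batch fit -0.54, adjusted p = 0.12, and -0.57 within batch 2), while its other probe set was at -0.010. FZD6, a frizzled receptor for Wnt proteins, read 6.82, 6.84 and 6.84 in M1 and 6.46, 5.62 and 5.705 in M5, with M5 replicate 1 nearer to M1 than the other M5 arrays (-0.91; adjusted p = 0.0305; batch fit -0.34, adjusted p = 0.208, and -0.36 within batch 2). ALCAM, CLDN1, ROBO1 and PLXNA1 all lie on chromosome 3, to which the account returns.

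BCHE, butyrylcholinesterase, had the largest difference of the named genes. It read 7.35, 6.21 and 6.73 in M1 and 4.12, 4.03 and 4.14 in M5. The M5 signals lay below the lower quartile of their arrays, and folds of signals that low are not exact, while M4 (6.87) and controls (7.03) were near M1. BCHE was 6.36-fold lower in M5 (log2 -2.67 ± 0.29; adjusted p = 0.00119; batch fit -3.12, adjusted p = 6.44e-06, and -3.23 within batch 2). VAMP8, a SNARE protein of regulated secretion and endosome fusion, read 6.64, 6.82 and 7.18 in M1 and 4.37, 4.92 and 4.48 in M5. It was 4.88-fold lower (log2 -2.29 ± 0.203; adjusted p = 0.000707; batch fit -2.37, adjusted p = 0.000205, and -2.27 within batch 2). The controls differed among themselves for VAMP8, at 6.91 and 7.26 without luciferase and 5.26 and 5.47 with it, all above the M5 values. CES1, a carboxylesterase of drug and ester metabolism, read 8.05, 7.49 and 7.33 in M1 and 5.73, 6.57 and 6.197 in M5 (2.74-fold lower; adjusted p = 0.0194; batch fit -1.89, adjusted p = 0.029, and -2.32 within batch 2). Here M1 was the line that stood apart, since M4 (6.01) and controls (5.48) were nearer to M5. BCHE and VAMP8 kept their calls in 6 of 6 fits without an array and CES1 in 3.

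**Figure D2:**
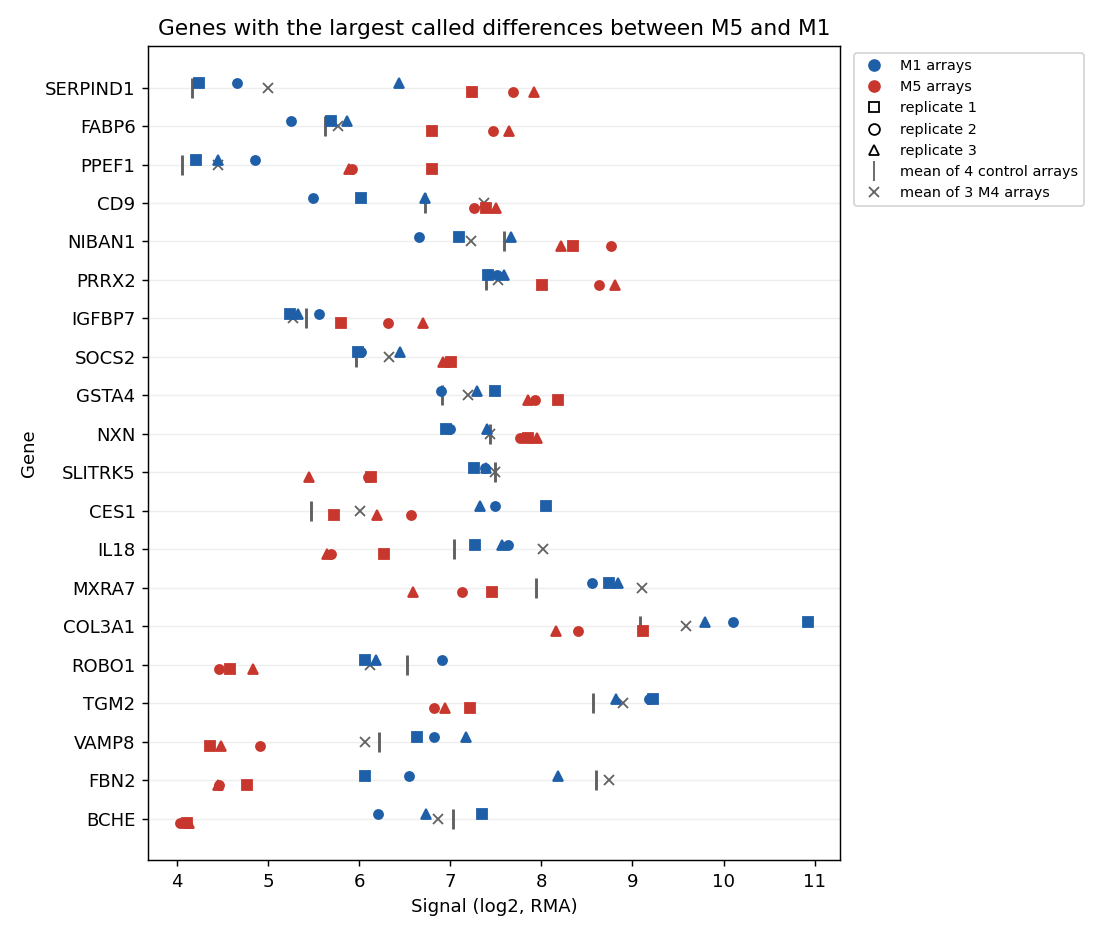
Log2 signal of the 10 genes with the largest difference toward M5 and the 10 with the largest toward M1 among called genes whose arrays did not overlap, with a point per M1 or M5 array and marks for the mean of the 4 control and 3 M4 arrays. FABP6 and PPEF1 were higher in M5 than in any other group, whereas COL3A1 and CES1 were highest in M1.

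Genes of lipid handling were among the higher genes. FABP6, a bile acid and fatty acid binding protein known from the ileum, read 5.69, 5.25 and 5.87 in M1 and 6.803, 7.47 and 7.65 in M5. Controls (5.63) and M4 (5.77) matched M1, and every M5 array was above them. FABP6 was 3.26-fold higher (log2 1.71 ± 0.21; adjusted p = 0.00246; batch fit 1.09, adjusted p = 0.00944, and 1.11 within batch 2), and stayed called in 6 of 6 fits without an array. CPT1A, the mitochondrial carnitine palmitoyltransferase that admits fatty acids to oxidation, read 7.55, 7.74 and 7.905 in M1 and 8.54, 8.34 and 8.51 in M5 (1.66-fold higher; adjusted p = 0.0187; batch fit 0.93, adjusted p = 0.0184, and 0.99 within batch 2). A dim CPT1A probe set was at -0.15, against 0.53 and 0.12 for the others. PLIN2, a coat protein of lipid droplets, lay the other way, 6.69, 6.51 and 6.51 in M1 against 6.03, 5.54 and 6.02 in M5 (-0.71; adjusted p = 0.0381; batch fit -0.67, adjusted p = 0.0794, and -0.66 within batch 2).

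Within that list of 39 genes of fatty acid uptake, carriers and storage, FABP6 and CPT1A were thus higher, PLIN2 lower and 36 not called. Over all genes 0.242% were called higher and 0.986% lower without batches, and 0.828% and 0.786% in the batch fit. The list median was 0.10 without batches, -0.077 with them and -0.048 within batch 2, next to 0.034, -0.0037 and -0.0079 for all genes. The batch fit also called the fatty acid receptor CD36, the acyl-CoA synthetase ACSL4 and the transporter SLC27A2 higher, but not PLIN2. CD36 read 5.06, 4.96 and 5.53 in M1 and 7.35, 5.397 and 5.24 in M5, so only M5 replicate 1 was above M1 by more than a small step. In the xenobiotic list of 63 genes, GSTA4, a glutathione transferase for lipid peroxides, read 7.49, 6.897 and 7.29 in M1 and 8.18, 7.93 and 7.85 in M5 (1.69-fold higher; adjusted p = 0.031; batch fit 0.84, adjusted p = 0.042, and 0.69 within batch 2), CES1 was lower and 61 were not called. ALDH1A1, the aldehyde dehydrogenase of retinoic acid synthesis, read 8.76, 8.86 and 10.33 in M1 and 11.07, 11.15 and 10.87 in M5, with M1 replicate 3 close to M5. It was called in the batch fit (2.32, adjusted p = 8.33e-05, and 2.31 within batch 2) and not without batches (1.71 ± 0.42, adjusted p = 0.0806).

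PPEF1, a protein phosphatase with calcium-binding EF hands, read 4.21, 4.86 and 4.45 in M1 and 6.799, 5.92 and 5.89 in M5. M1 replicate 1 lay below the lower quartile of its array (4.23), so the fold is not exact. M5 replicate 1 was the highest, and the batch fit, which rests on it, gave 2.395 (adjusted p = 0.000155, and 2.59 within batch 2) and the fit without batches 1.697 ± 0.22, or 3.24-fold (adjusted p = 0.00276). PPEF1 stayed called in 6 of 6 fits without an array. SOCS2, a suppressor of cytokine and growth hormone signalling, read 5.99, 6.02 and 6.45 in M1 and 7.01, 6.98 and 6.92 in M5 (1.76-fold higher; adjusted p = 0.0427; batch fit 0.81, adjusted p = 0.0416, and 1.03 within batch 2). NXN, the redox protein nucleoredoxin, read 6.95, 6.997 and 7.404 in M1 and 7.85, 7.76 and 7.95 in M5 (1.67-fold higher; adjusted p = 0.0225; batch fit 0.78, adjusted p = 0.0502, and 0.901 within batch 2). NIBAN1, a regulator of the translation response to stress, read 7.098, 6.66 and 7.67 in M1 and 8.35, 8.76 and 8.22 in M5 (2.46-fold higher; adjusted p = 0.0455; batch fit 1.03, adjusted p = 0.079, and 1.25 within batch 2). PRRX2, a homeobox factor of mesenchyme, read 7.41, 7.51 and 7.59 in M1 and 8.003, 8.63 and 8.81 in M5 (1.97-fold higher; adjusted p = 0.0219; batch fit 0.61, adjusted p = 0.0444, and 0.59 within batch 2). SAMHD1, a nucleotide triphosphatase that is induced by interferon, read 5.22, 5.34 and 5.18 in M1 and 6.03, 5.72 and 5.65 in M5 (1.47-fold higher; adjusted p = 0.0449; batch fit 0.78, adjusted p = 0.0116, and 0.82 within batch 2).

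Among cell cycle and repair genes the 5 members called without batches were lower in M5. ECT2, the exchange factor that starts cytokinesis, read 8.64, 8.47 and 8.400 in M1 and 7.97, 6.52 and 7.02 in M5 (-1.33; adjusted p = 0.0443; batch fit -0.74, adjusted p = 0.0741, and -0.67 within batch 2). RFC4, a subunit of the clamp loader of DNA replication, read 9.61, 9.71 and 9.703 in M1 and 8.98, 8.595 and 8.58 in M5 (-0.95; adjusted p = 0.00327; batch fit -0.63, adjusted p = 0.0376, and -0.62 within batch 2). MCM2, a subunit of the replicative helicase, read 10.204, 10.13 and 10.11 in M1 and 9.61, 9.57 and 9.74 in M5 (-0.51; adjusted p = 0.0449; batch fit -0.66, adjusted p = 0.0306, and -0.598 within batch 2). These 3 genes, and the repair protein XPC (-0.596; adjusted p = 0.0225; batch fit -0.44, adjusted p = 0.144, and -0.46 within batch 2), lie on chromosome 3. Only CCNG2, a cyclin of growth arrest on chromosome 4, lies elsewhere, at 6.72, 6.75 and 6.79 in M1 and 6.19, 6.04 and 5.81 in M5 (-0.74; adjusted p = 0.0187; batch fit -0.61, adjusted p = 0.0868, and -0.53 within batch 2). Of 65 genes of G1/S control and replication 2 were called, of 57 mitotic genes 1, and of 50 p53 and damage genes 2, next to 0.986% lower and 0.242% higher over all genes. With batches, RFC4 and MCM2 were called lower in the first list, 0 genes in the p53 list (11 at an unadjusted p under 0.05 by limma), and in the mitotic list MAD2L1, a spindle checkpoint protein, higher. MAD2L1 read 8.72, 8.95 and 8.72 in M1 and 9.53, 8.08 and 8.101 in M5 (batch fit 0.71, adjusted p = 0.0281, and 0.81 within batch 2; -0.23 without batches, adjusted p = 0.746), so replicate 1 of M5 lay above all M1 arrays and replicates 2 and 3 below them. The list medians were -0.097, -0.11 and -0.054 without batches and -0.00096, -0.022 and -0.026 with them.

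Chromosome 3 held most of the genes that were lower in M5. Of its 655 measured genes, 82 were called lower (12.5%, against 0.986% of all genes) and 0 higher, with 293 lower and 22 higher at an unadjusted p under 0.05. The batch fit called 52 lower (7.94%, against 0.786%) and 1 higher. With batches from the spike-ins alone, 15 were lower (2.29%, against 0.217% of all genes). On all arrays 249 of its genes (38%, against 6.22%) had M5 below M1. Leaving out an array gave between 15 and 251 lower genes. That was 2.29% without M5 replicate 3 (against 0.167% of all genes) and 38.3% without M5 replicate 1 (against 10.1%). Without the genes of chromosome 3, a test added after seeing the data, 21 genes were lower and 11 higher. Since 0 of the 29 higher genes lie on chromosome 3, the fall to 11 was not a loss of its members. The calls were made anew over the remaining genes.

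The shift was seen in the bulk of the chromosome's genes. Over its 335 genes above the median signal, the median difference from the M1 mean was -0.31, -0.65 and -0.54 on M5 replicates 1, 2 and 3, against 0.0030, -0.038 and 0.025 on the M1 arrays. Control and M4 arrays lay between 0.0056 and 0.091. The 3 M5 arrays were thus below the other 10. The median difference between lines was -0.50, with -0.33 in the batch fit and -0.30 within batch 2, while the 5376 such genes on chromosomes other than 3 and 5 gave -0.015, 0.022 and 0.046. In the short arm 27 of 313 genes were lower (8.63%, median -0.44), and in the long arm 55 of 342 (16.1%, median -0.60). With batches, 21 and 31 genes were called lower, with medians of -0.32 and -0.34, and within batch 2 the medians were -0.29 and -0.32, so the arms lay closer together there. Arms were split at the widest stretch without genes in the RefSeq table. DNA copy number was not measured in these data.

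Windows of 31 neighbouring genes showed the shift along the whole chromosome. All 305 overlapping windows, which share genes and are not independent, had a median below 0 on each of the 3 M5 arrays. Within batch 2 the lowest window ran from PRKCI to P3H2 on the long arm, at -0.62, and the highest from PSMD6 to SLC35A5 across the middle of the chromosome, at -0.15. PRKCI, an atypical protein kinase C, read 8.82, 8.73 and 8.76 in M1 and 8.05, 7.56 and 7.64 in M5 (-1.02; adjusted p = 0.00246; batch fit -0.75, adjusted p = 0.0184, and -0.77 within batch 2). MYD88, the adaptor of Toll-like and interleukin-1 family receptors, on the short arm, read 8.09, 7.91 and 8.13 in M1 and 7.24, 7.08 and 7.28 in M5 (-0.85; adjusted p = 0.00246; batch fit -0.86, adjusted p = 0.0116, and -0.85 within batch 2). The choice of PRKCI and MYD88 was made with their values in view. Among the named genes, BCHE, ROBO1, ECT2, CLDN1, ALCAM, RFC4, ETV5, NDUFB5, XPC, PLXNA1, AMOTL2 and MCM2 lie on chromosome 3. BCHE (-2.67) and ROBO1 (-1.76) exceeded the chromosome's median several times over, while AMOTL2 (-0.54), a partner of YAP, and MCM2 (-0.51) were close to it.

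**Figure D3:**
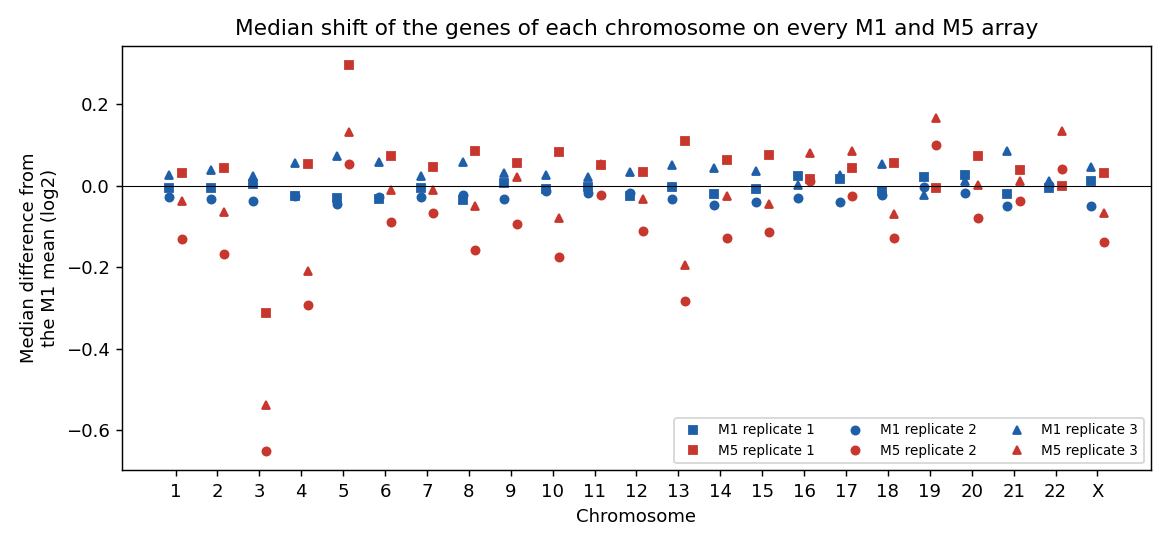
Median log2 difference from the M1 mean over the genes above the median signal of each chromosome, with a point per M1 and M5 array. Chromosome 3 was low on all 3 M5 arrays (-0.31, -0.65 and -0.54) and chromosome 5 was above the M1 mean on them (0.30, 0.053 and 0.13), while chromosomes 4 and 13 were low on M5 replicates 2 and 3 only.

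Chromosome 5 lay the other way, less evenly. Of 507 measured genes, 4 were called higher (0.789%, against 0.242%) and 1 lower, FBN2. The batch fit called 19 higher (3.75%, against 0.828%) and 2 lower, and on all arrays 87 (17.2%, against 7.5%) had M5 above M1. Over 270 genes above the median signal the median was 0.30, 0.053 and 0.13 on M5 replicates 1, 2 and 3 and between -0.046 and 0.074 on the M1 arrays. Replicate 1 was thus the clear one, and M5 replicate 2 was below the highest M1 array. Controls without luciferase read 0.21 and 0.24 and those with it 0.039 and 0.13, so on this chromosome M5 replicate 1 was nearer to the cells without luciferase. M4 lay between -0.044 and -0.023. The difference between lines was 0.17, with 0.27 in the batch fit and 0.30 within batch 2. Of 240 windows, 145 were above 0 on all 3 M5 arrays. Chromosomes 4 and 13, whose medians were -0.29 and -0.28 on M5 replicate 2 and -0.21 and -0.19 on replicate 3, were at 0.053 and 0.11 on replicate 1. Their shift was therefore not shared by the M5 array of batch 2.

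**Figure D4:**
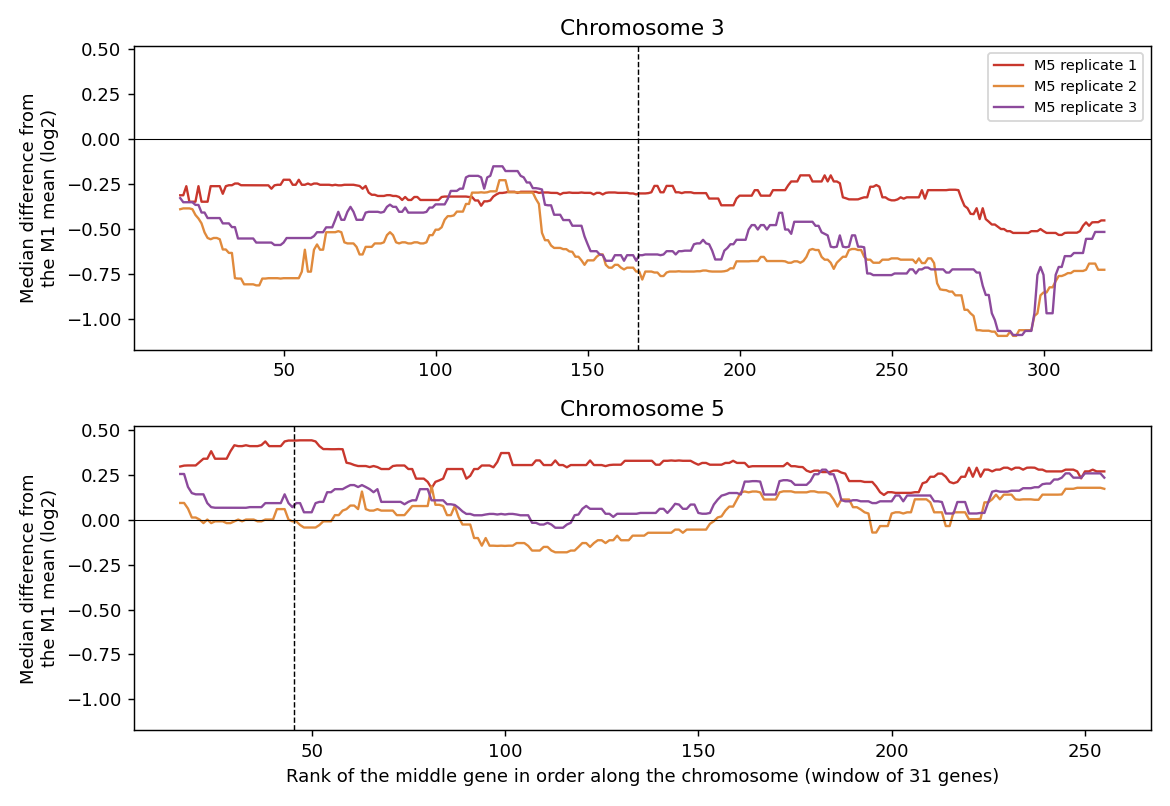
Median log2 difference from the M1 mean in windows of 31 neighbouring genes above the median signal, in order along chromosomes 3 (upper panel) and 5 (lower panel), with a line per M5 array and a dashed line between the short and the long arm. On chromosome 3 all 305 windows lay below 0 on the 3 arrays, and on chromosome 5 M5 replicate 1 was above 0 throughout while replicate 2 crossed 0.

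The lists of pathway genes were then read for members not yet described. Called members here and in the lists that follow stand next to the shares over all genes. These were 0.242% higher and 0.986% lower without batches, and 0.828% and 0.786% in the batch fit. In the list of collagens, laminins and matrix glycoproteins, LAMB3 was higher, FBN2 and COL3A1 lower and 47 of 50 not called, with a median of -0.045 (-0.072 in the batch fit, which added LAMB2 as lower and dropped LAMB3). Of 50 extracellular proteases and inhibitors SERPIND1 was higher, PLAU lower and 48 not called (median 0.058), and in the batch fit SERPIND1 alone was called (median -0.044). Of 37 integrins and focal adhesion genes 0 were called in either limma fit, with 8 at an unadjusted p under 0.05 without batches. Adhesion molecules held CD9 higher and ALCAM lower out of 41, and the batch fit added CD58 and PODXL as higher. The 36 epithelial genes held CLDN1 lower in both fits (median 0.039, and -0.058 in the batch fit). The 35 mesenchymal genes held PRRX2 higher in both fits (median -0.038, and -0.020 in the batch fit), and the batch fit also called the matrix protein TNC higher (0.74, adjusted p = 0.0366; 0.172 without batches) and the tropomyosin TPM2 lower (-0.74, adjusted p = 0.0471; 0.0806 without batches). Of 53 axon guidance genes ROBO1 and PLXNA1 were lower and 51 not called (median 0.072, and -0.066 in the batch fit).

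Of 43 osteolysis and bone metastasis factors, CXCL8 was lower and 42 were not called (median 0.048, and -0.045 in the batch fit), next to 0.986% lower and 0.242% higher over all genes. The batch fit called JAG1, a Notch ligand, higher and CCN1 and CCN2, matricellular targets of YAP, lower. JAG1 read 6.86, 6.91 and 6.81 in M1 and 8.36, 6.402 and 6.500 in M5, so replicates 2 and 3 of M5 lay below all M1 arrays and only replicate 1 above. CCN1 read 10.32, 9.93 and 10.27 in M1 and 9.31, 10.396 and 10.18 in M5, and CCN2 10.13, 9.78 and 10.04 in M1 and 9.25, 10.22 and 9.78 in M5, each low on M5 replicate 1 alone. These calls rest on that array and are absent without batches (adjusted p = 0.813, 0.72 and 0.613 by limma). Of 39 CCN and YAP-TEAD genes, AMOTL2 was lower, at 8.998, 8.91 and 9.04 in M1 and 8.44, 8.52 and 8.39 in M5 (adjusted p = 0.0305; batch fit -0.62, adjusted p = 0.0438, and -0.56 within batch 2), and 38 were not called. TGF-beta and BMP signalling (54 genes) and the Notch pathway (22) held 0 called members without batches in the limma fit, with 16 and 9 at an unadjusted p under 0.05, and the batch fit called FSTL1 lower in the former and JAG1 higher in the latter. The 49 Wnt genes held FZD6 lower, and FZD1 higher in the batch fit.

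Of 54 NF-kappaB targets and cytokines IL18 and CXCL8 were lower and 52 not called (median 0.11, and -0.043 in the batch fit), and the batch fit called IL15 and IL7R higher and CXCL1 lower instead. IL7R, a receptor chain for interleukin-7, read 7.24, 8.42 and 8.15 in M1 and 8.65, 8.92 and 8.93 in M5 (batch fit 1.36, adjusted p = 0.0116, and 1.404 within batch 2, against an adjusted p of 0.28 without batches). Of 47 interferon-stimulated genes SAMHD1 was higher, and IFI44 joined it in the batch fit. The 19 receptors of the IL-4 and IL-13 class held 0 called members in either fit, with 4 at an unadjusted p under 0.05 without batches. The 34 MHC and antigen presentation genes held 0 without batches, with 6 at an unadjusted p under 0.05, and ERAP1, a peptide-trimming protease encoded on chromosome 5, higher in the batch fit. Of 47 genes of the EGFR family and MAPK feedback, ETV5, a transcription factor induced by MAPK signalling, was lower at 8.87, 8.58 and 8.65 in M1 and 7.65, 8.25 and 7.65 in M5 (-0.85; adjusted p = 0.0219; batch fit -1.13, adjusted p = 0.0272, and -1.22 within batch 2). DUSP5, a phosphatase of ERK, was lower in the batch fit alone (-1.04), at 8.71, 8.299 and 8.39 in M1 and 7.64, 8.93 and 8.501 in M5. Other growth factor genes, 53 in all, held IGFBP7 higher and IGFBP4 lower.

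Metabolic genes and the remaining lists came next. Of 51 oxidative phosphorylation genes, NDUFB5, a complex I subunit on chromosome 3, was lower at 10.08, 10.17 and 10.31 in M1 and 9.66, 9.36 and 9.08 in M5 (-0.82; adjusted p = 0.0208; batch fit -0.398, adjusted p = 0.187, and -0.42 within batch 2), and 50 were not called. The batch fit instead called NDUFA5, another complex I subunit, and SDHD, a complex II subunit, higher (0.58 and 0.65, adjusted p = 0.0435 and 0.029), against adjusted p = 0.695 and 0.994 without batches. The list median was 0.13 without batches, 0.070 with them and 0.10 within batch 2. Hypoxia and glycolysis (48 genes), cholesterol and fatty acid synthesis (31) and the unfolded protein and heat shock response (45) held 0 called members without batches in the limma fit, with 4, 4 and 4 at an unadjusted p under 0.05. The batch fit called P4HA2, a prolyl hydroxylase of collagen, higher and no other gene of those 3 lists. Nor were any of 27 S100 and annexin genes, 25 cancer-testis antigens or 29 lung lineage genes called without batches, with 3, 4 and 6 at an unadjusted p under 0.05. In the batch fit GATA6 was higher and MUC5AC lower in the lung lineage list. The 46 nicotinic receptor, purine and ion channel genes held BCHE lower, and CHRNA9, a nicotinic receptor subunit, higher in the batch fit. CHRNA9 read 4.996, 5.26 and 4.26 in M1 and 7.56, 5.396 and 5.49 in M5, highest by far on M5 replicate 1 (1.31 without batches, adjusted p = 0.194; 2.67 with them, adjusted p = 0.000205). Of these 46 genes 30 were below the median signal, and dim genes shifted upward on M5 replicates 2 and 3 as described above; its part in the list medians was not tested.

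**Figure D5:**
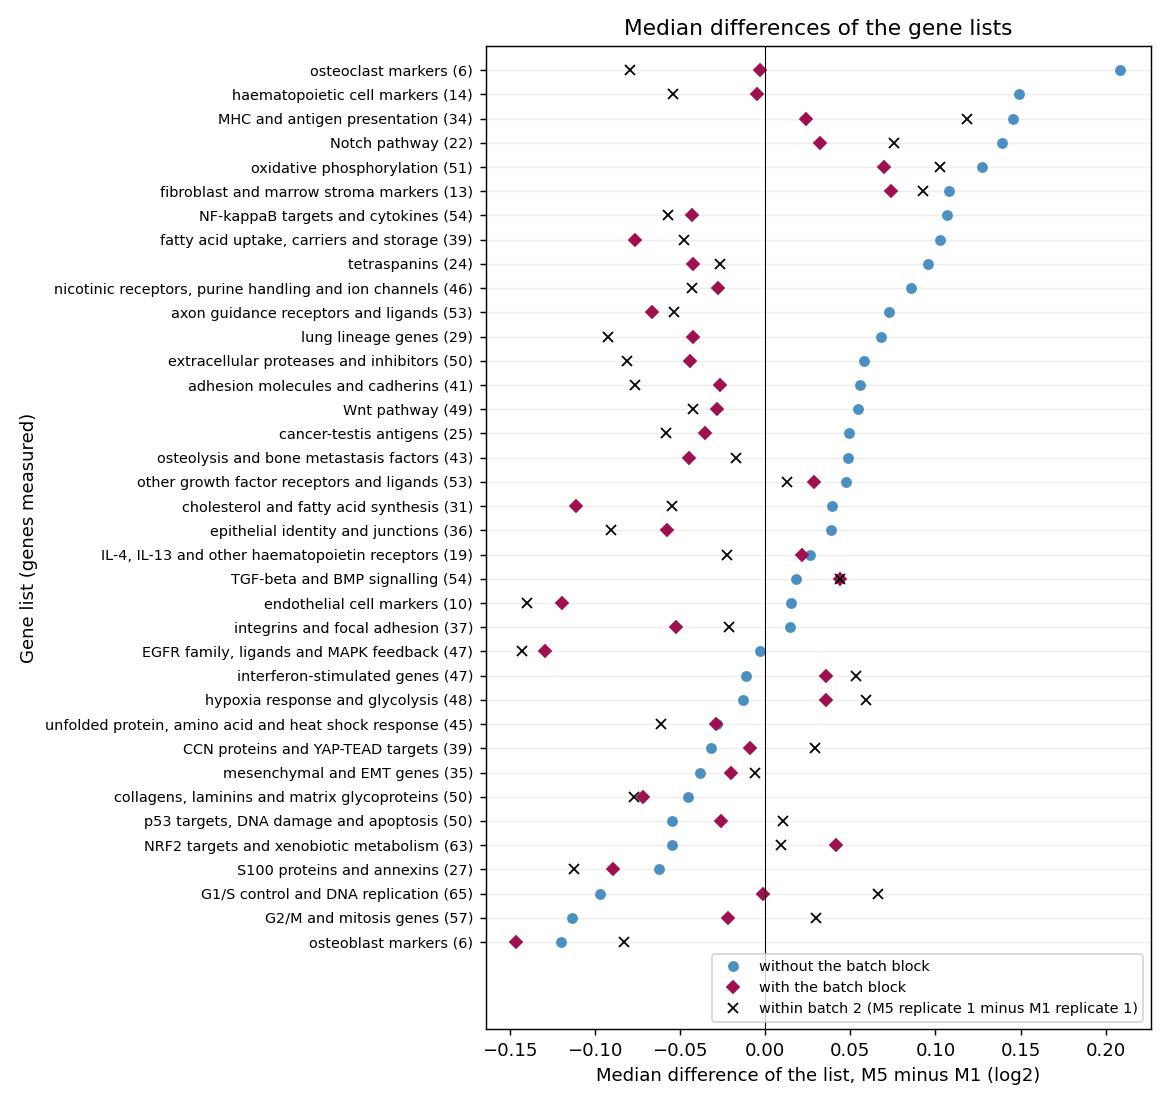
Median log2 difference M5 minus M1 of the members of each gene list, other than the 4 genes of the published study, without batches (circles), with the batch block (diamonds) and within batch 2 (crosses), with the number of measured genes in brackets. No plotted median exceeded 0.21 in size, and lists such as the NF-kappaB targets changed sign between the fits (0.11 and -0.043).

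The published study singled out TCF4, PRKD3, MCAM and SUSD5 on these samples, so their levels here are not independent evidence. Without batches 0 of the 4 were called between M5 and M1 in the limma fit, with 1 at an unadjusted p under 0.05. MCAM, a melanoma-associated adhesion molecule, read 7.59, 6.66 and 6.87 in M1 and 6.92, 5.79 and 6.13 in M5, and the groups overlapped (-0.75 ± 0.297; adjusted p = 0.26; batch fit -0.46, adjusted p = 0.389, and -0.66 within batch 2). SUSD5, a sushi-domain membrane protein on chromosome 3, read 5.56, 5.86 and 5.802 in M1 and 6.21, 4.53 and 5.03 in M5 (-0.49 ± 0.32; adjusted p = 0.498). PRKD3, a protein kinase D, read 9.78, 9.83 and 9.49 in M1 and 10.37, 9.14 and 8.89 in M5 (-0.24 ± 0.29; adjusted p = 0.732). TCF4, a helix-loop-helix transcription factor of the E-protein class, read 6.52, 6.12 and 6.41 in M1 and 6.62, 6.19 and 5.69 in M5 (-0.18 ± 0.21; adjusted p = 0.722). For SUSD5 and PRKD3, M5 replicate 1 was above every M1 array and M5 replicates 2 and 3 were below every M1 array. The direction of SUSD5, PRKD3 and TCF4 turned in the batch fit, to 0.46 for SUSD5 (adjusted p = 0.441), 0.66 for PRKD3 (adjusted p = 0.0462, called higher) and 0.17 for TCF4 (adjusted p = 0.815). Within batch 2 they were at 0.64, 0.59 and 0.11. All M1 and M5 arrays were above the control means of MCAM (5.46), SUSD5 (4.29) and TCF4 (5.62). For PRKD3, M5 replicate 3 (8.886) was level with the control mean (8.887) and the other M1 and M5 arrays were above it. Single control arrays overlapped M5 for TCF4 and PRKD3. A control array with luciferase read 5.73 for TCF4, above M5 replicate 3 (5.69). A control array without luciferase read 9.18 for PRKD3, above M5 replicates 2 (9.14) and 3.

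A pair of further lower genes, chosen after their values were seen, had no place in the lists. HCLS1, an actin regulator known from haematopoietic cells, read 5.61, 5.42 and 4.87 in M1 and 3.64, 3.81 and 3.901 in M5 (-1.52 ± 0.18; adjusted p = 0.00185; batch fit -1.79, adjusted p = 0.00944, and -1.97 within batch 2). Controls (3.94) and M4 (3.65) were as dim as M5, so M1 stood apart, and the M5 signals were under the lower quartile; HCLS1 also lies on chromosome 3. MYH10, the heavy chain of non-muscle myosin IIB on chromosome 17, read 9.36, 9.01 and 9.41 in M1 and 8.22, 7.69 and 7.63 in M5 (-1.42 ± 0.16; adjusted p = 0.00132; batch fit -1.03, adjusted p = 0.0113, and -1.14 within batch 2). Here M4 (9.45) and controls (8.901) were near M1, and every M5 array was below every M1 array.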

How the data were processed

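Gene expression was measured on 13 Affymetrix arrays, and 3 arrays of M5 were compared with 3 of M1. The table the authors deposited holds log2 signals for 22277 probe sets, summarised by RMA according to the labels' processing notes; the version is not given in the sources used here. Control probe sets (62) were set aside, and of the others 19064 carry 1 gene symbol, 1043 several and 2108 none. The probe set with the highest mean was taken for each gene, leaving 11963 genes, 11954 of them with a chromosome in the RefSeq table of GRCh38.p14.

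Differences were fitted with limma (3.58.1, R 4.3.3; lmFit, eBayes) as 5 group means over the 13 arrays, with a call at p under 0.05 after Benjamini-Hochberg adjustment across all genes. Batches came from Ward clustering of the control probe sets, with 3 batches from the 45 spike-in probe sets as an alternative. Other alternatives were a replicate block, the 6 arrays alone, a trended robust prior, other probe set rules, the dim genes left out, median centring, quantile normalization, stricter thresholds and each array left out. M5 as its replicate 1 alone and the genes of chromosome 3 left out were added after the data were seen. No arrays held equal values (smallest median absolute difference 0.0905), and their number limits the precision. The fit was also run on simulated data with known changes. Their noise was independent between genes and smaller than on these arrays, so that run checks the code and not the calls made here.

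Named genes were, among called genes without overlap whose higher mean was above the median signal, the 10 largest differences each way; the 5 largest each way called in both fits; up to 3 called members per list and direction; and the 4 genes of the published study. Members and the 38 lists were chosen with earlier results of these data known. Y-linked genes and XIST are not reported here. ± is the SE beside a difference.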

Additional observations from a re-analysis of the deposited data

How the results depend on the processing

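The counts of higher and lower genes (29 and 118) depended on the array batches and on single arrays. The batch block gave 99 higher genes. A block from the spike-ins alone gave 25 higher genes, only 4 of them among the 29, and 26 lower genes, 18 of them among the 118. Only the 6 arrays gave 0 and 4, with 496 higher and 582 lower genes at an unadjusted p under 0.05. Leaving out each array gave 2 to 1152 higher and 20 to 1214 lower genes, the extremes being without M5 replicate 3 and without M5 replicate 1. M5 as its replicate 1 alone gave 18 and 16, and leaving out chromosome 3 gave 11 and 21. An adjusted p under 0.01 left 2 and 27 and a 2-fold minimum 5 and 37, as fewer genes meet a stricter rule. For the spike-in block, the single arrays and the 6 arrays the cause was not tested. A trended robust prior, other probe set rules, centring, quantile normalization and the genes above the median signal each stayed within 1.5 times both counts.

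The deviations of same-numbered arrays from their line means correlated at 0.049, 0.0038 and -0.075 (replicates 1, 2 and 3), so they showed no pairing. Replicate 1 of both lines nevertheless lay in batch 2, and whether same-numbered arrays were processed together was not tested. The replicate block gave 0 higher and 4 lower genes, with 437 and 582 at an unadjusted p under 0.05.

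Of the 41 called named genes, 18 lost the call with the batch block, 31 with the spike-in block, 37 with the replicate block and 38 with the 6 arrays. Leaving out M1 replicates 1, 2 and 3 lost 26, 29 and 21, and M5 replicates 1, 2 and 3 lost 0, 26 and 32. The M1 and M5 arrays of these called genes did not overlap, so only the batch block and the spike-in block could turn their sign. No called named gene changed sign in any of these fits. PRKD3, SUSD5 and TCF4, none called, did: with the batch block they were at 0.66, 0.46 and 0.17, with the spike-in block at 0.68, 0.48 and 0.17, and with M5 replicate 1 alone at 0.67, 0.46 and 0.28. Leaving out single arrays gave -0.69 to 0.054 for PRKD3 and -0.41 to 0.058 for TCF4, both turning without M5 replicate 3. Signals under the lower quartile, as for BCHE in M5, limit the folds.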

Other observations

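Probe sets without a gene symbol in the platform table were tested apart. Of 2108, 4 were higher and 5 lower in M5 without batches and 10 and 11 with them, 4 of these in both fits. Of 1022 probe sets that carry several symbols, 0 were called by limma in either fit, with 109 and 141 at an unadjusted p under 0.05 without and with batches.

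A few genes were called in the batch fit only and were chosen after their values were seen. PTGES, the inducible prostaglandin E synthase, read 7.73, 7.39 and 8.38 on the M1 replicates and 8.87, 8.89 and 8.96 on the M5 replicates, so every M5 array was above every M1 array (1.07 ± 0.24, limma adjusted p = 0.0531; batch fit 1.12, adjusted p = 0.002). DHRS3, a retinal reductase, read 5.37, 5.31 and 5.97 and 6.69, 7.17 and 6.81, again without overlap (batch fit 1.56, adjusted p = 0.0146; without batches 1.34, adjusted p = 0.0812). SEC24A, a coat protein of transport vesicles encoded on chromosome 5, read 7.64, 7.63 and 8.10 and 8.92, 7.49 and 7.58, high on M5 replicate 1 alone (batch fit 1.23, adjusted p = 0.00337; without batches 0.21, adjusted p = 0.76).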
